A study of Mus musculus with 8 samples.

Results

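The genes described here are chromatin modifiers and remodelers, 73 of the 21887 protein-coding genes of the mouse GRCm38 annotation. They were chosen by symbol alone (Kdm, Kmt, Kat, Sirt or Brd followed by a digit, Setd followed by a digit or b, and Smarc followed by a letter from a to e) and fall into 6 families. There are 18 methyltransferase genes (Kmt and Setd), 18 demethylase genes (Kdm) and 8 acetyltransferase genes (Kat). The others are 13 remodeler genes (Smarc), 9 bromodomain genes (Brd) and 7 sirtuin genes (Sirt). The families also go by symbol, so a gene such as Brd3os need not encode a protein of its family's kind. Binding of phospho-CREB1 at these genes was measured by chromatin immunoprecipitation and sequencing (ChIP-seq) in muscle of male Balb/c mice. C26 mice had been injected under the skin at 2 months of age with C26 cells, a colon adenocarcinoma line used as a model of cancer-driven muscle wasting, and CTRL mice were the controls, whose age is not stated. From day 4 after the tumor cells, C26 animals are described as given rolipram, a phosphodiesterase 4 inhibitor, at 3 mg/kg or its vehicle, without saying which the ChIP-seq animals received. The title of the series asks about impaired signaling through cAMP and CREB1 in wasting muscle. The series holds 8 samples, of which 4 are input chromatin, and each group has 2 phospho-CREB1 libraries. The labels do not say whether the libraries of a group came from separate animals, so the spread between them may be technical. They name the gastrocnemius in some places and the quadriceps in another, and the protocol leaves it unclear if the antibody was against CREB or its phosphorylated form.

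CREB1 is a transcription factor that is phosphorylated when cAMP rises, and the phosphorylated form recruits the acetyltransferases CBP and p300 to promoters that hold its binding site, the cAMP response element. Many of the genes followed here encode enzymes that write histone methyl and acetyl groups or erase them. Others encode bromodomain proteins that read acetylated lysines, or parts of the ATP-driven complexes that move nucleosomes. In muscle these proteins set which genes the myogenic and metabolic regulators can reach, and the sirtuins, whose deacylase reaction consumes NAD, tie this layer to energy metabolism.

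The promoters of 5 of the genes are shown, as RefSeq gives them on GRCm38.p6 from 250 bases before to 50 bases after the start, 5′ to 3′ on the strand of the gene. Smarcad1, Kat8 and Kat5 are examples of strong peaks present in all 4 libraries. Smarcb1 and Kdm1a are examples of peaks present in the CTRL libraries alone. The 5 were picked after the values were seen, all but Kdm1a because they hold TGACG on either strand. They are not typical: of chromatin genes with a peak at a start in both CTRL libraries, 37.5% held TGACG. Capitals mark TGACG or its reverse complement CGTCA, which is the shorter element inside the full palindrome TGACGTCA. The windows are chr6:65042341-65042640 (Smarcad1, plus strand), chr7:127912267-127912566 (Kat8, plus strand), chr19:5610045-5610344 (Kat5, minus strand), chr10:75921565-75921864 (Smarcb1, minus strand) and chr4:136602674-136602973 (Kdm1a, minus strand).
Smarcad1: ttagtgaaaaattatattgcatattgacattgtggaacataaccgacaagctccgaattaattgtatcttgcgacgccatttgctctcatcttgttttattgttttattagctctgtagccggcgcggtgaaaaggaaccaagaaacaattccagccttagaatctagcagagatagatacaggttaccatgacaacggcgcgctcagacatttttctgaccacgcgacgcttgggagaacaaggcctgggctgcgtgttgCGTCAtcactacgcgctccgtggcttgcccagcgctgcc
Kat8: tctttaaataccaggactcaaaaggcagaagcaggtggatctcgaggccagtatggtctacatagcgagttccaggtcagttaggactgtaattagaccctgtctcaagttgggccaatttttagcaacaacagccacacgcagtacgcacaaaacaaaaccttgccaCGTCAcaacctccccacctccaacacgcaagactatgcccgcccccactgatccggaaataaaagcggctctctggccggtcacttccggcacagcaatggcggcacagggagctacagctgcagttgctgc
Kat5: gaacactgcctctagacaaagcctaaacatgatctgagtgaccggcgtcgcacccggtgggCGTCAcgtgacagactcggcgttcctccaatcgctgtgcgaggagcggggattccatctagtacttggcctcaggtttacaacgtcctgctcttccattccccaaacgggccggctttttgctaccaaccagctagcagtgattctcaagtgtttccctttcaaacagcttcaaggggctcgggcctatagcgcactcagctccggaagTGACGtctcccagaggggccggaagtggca
Smarcb1: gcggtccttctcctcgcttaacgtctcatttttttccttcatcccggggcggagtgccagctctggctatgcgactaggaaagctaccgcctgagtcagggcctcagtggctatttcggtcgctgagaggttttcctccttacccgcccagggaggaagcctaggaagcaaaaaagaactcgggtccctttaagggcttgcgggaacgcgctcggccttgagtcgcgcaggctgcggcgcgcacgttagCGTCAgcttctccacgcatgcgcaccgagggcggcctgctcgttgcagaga
Kdm1a: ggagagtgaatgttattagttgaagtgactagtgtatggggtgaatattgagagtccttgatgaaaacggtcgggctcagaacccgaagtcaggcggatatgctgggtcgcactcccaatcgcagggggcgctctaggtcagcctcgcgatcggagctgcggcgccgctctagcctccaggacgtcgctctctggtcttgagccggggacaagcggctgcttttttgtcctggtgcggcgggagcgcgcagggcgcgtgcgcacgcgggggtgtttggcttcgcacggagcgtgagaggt
In Smarcad1 the element starts 11 bases after the start site, and the summits of CTRL replicates 1 and 2 and then C26 replicates 1 and 2 lay 24, 49, 69 and 14 bp from its centre. In Kat8 it starts 82 bases before the start, with summits 17, 57, 15 and 13 bp away in the same order. Kat5 has 2 such elements, and its 4 summits lay 2, 7, 24 and 35 bp from the nearer. The element of Smarcb1 sits at the start site itself, 4 and 28 bp from the CTRL summits. Kdm1a has none in its window, although its CTRL summits lay 53 and 91 bp before the start. The promoter of Setd3, which had the strongest peak of the set in CTRL replicate 2 by percentile, is not shown because its summits lay 465 to 502 bp upstream, outside the window.

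Most of these genes carried phospho-CREB1 near a gene end in CTRL muscle. A gene-end peak has its summit no farther than 1000 bp from an end of the gene span, on either side, and the deposited lists held 4051 to 14975 peaks per library, called by the authors at a q threshold of 0.05. Such a peak was present at 55 of the 73 genes in CTRL replicate 1 (75.3%, against 33.9% of all protein-coding genes) and at 58 in CTRL replicate 2 (79.5%, against 40.1%). In the C26 libraries the counts were 47 in replicate 1 (64.4%, against 26.1%) and 21 in replicate 2 (28.8%, against 14%). Both CTRL libraries had a peak at 53 genes (72.6%, 95% Wilson interval 61.4 to 81.5, against 32.2% of all genes), and 12 genes had none in any library (16.4%, against 57.7%). These shares are descriptions without a test, and the intervals cover counting error only. A fixed list of 84 other chromatin genes, such as histone deacetylases and Polycomb subunits, was occupied in both CTRL libraries at 56 of 84 (66.7%). The median span of the 73 genes was 39517 bp against 17169 bp for all protein-coding genes.

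**Figure D1:**
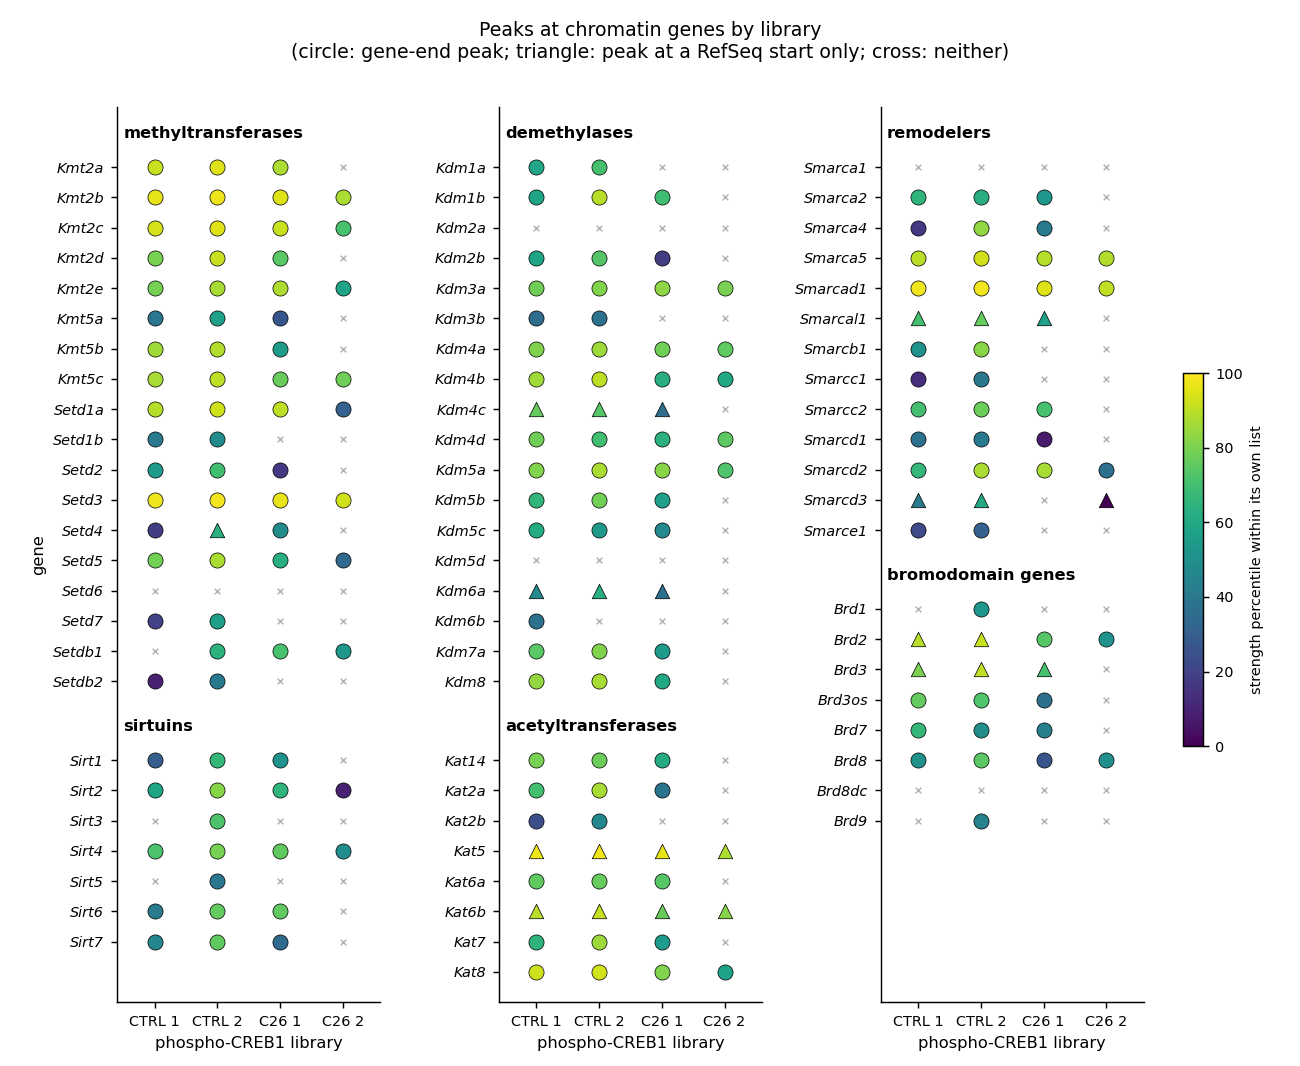
Each row is a chromatin gene (72 of the 73 are drawn) and each column a phospho-CREB1 library, with circles for gene-end peaks, triangles for peaks found only at a RefSeq transcription start, crosses for neither, and color for the strength percentile within that library's own list. The column of C26 replicate 2 is the emptiest, with gene-end peaks at 21 of 73 genes, and 14 of the 19 genes with circles in all 4 columns belong to the strongest of 3 equal groups by CTRL percentile.

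The lists come from whole muscle, so fewer nuclei with the factor bound and less of it bound per nucleus cannot be told apart. Among marker genes of the tissue, 5 of 7 skeletal muscle genes were occupied at a gene end in both CTRL libraries, while 0 of 3 endothelial, 0 of 3 leukocyte and 0 of 3 fibroblast genes were. In CTRL replicate 2 alone 1 endothelial and 1 fibroblast gene had a peak. The muscle genes with a peak numbered 5 and 7 in the CTRL and 3 and 1 in the C26 libraries, lower in C26 as for the chromatin genes. Peaks are not expression, and the part of other cell types in the results was not tested. Read depth is unknown, and a gene without a peak may still be bound below the threshold of the caller.

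Fewer chromatin genes had a gene-end peak in C26 than in CTRL muscle, with a wide gap between the C26 libraries. The CTRL libraries averaged 56.5 ± 2.12 genes and the C26 libraries 34 ± 18.4 (SD, n = 2 each), and C26 minus CTRL was −22.5 genes (exact two-sided permutation test, p = 0.33, the smallest p that 2 against 2 libraries allow). Both C26 counts lay below both CTRL counts. The C26 mean was 60.2% of the CTRL mean for the chromatin genes and 54.2% for all protein-coding genes, a share near the general one. The difference was −9.5 without C26 replicate 2 and −35.5 without C26 replicate 1. The lists differ in length, and when each was trimmed to its 4051 strongest peaks the counts became 32 and 36 in CTRL and 37 and 21 in C26 muscle, groups that overlap, with a difference of −5 (exact permutation p = 1.0). The C26 mean was then 85.3% of the CTRL mean, against 87.4% for all genes.

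Of the 53 genes occupied in both CTRL libraries, 19 had a peak in all 4 libraries (35.8%, against 39.6% of the 7037 such genes overall). Another 25 had one in C26 replicate 1 and not in C26 replicate 2 (47.2%, against 35.3%), and 0 had one in C26 replicate 2 and not in C26 replicate 1 (0%, against 2.1%; a count of 0 of 53 allows a share of up to 5.66%). The remaining 9 were CTRL-only, with a peak in both CTRL and neither C26 library (17%, Wilson interval 9.20 to 29.2, against 23%). Among the other chromatin genes 15 of 56 were CTRL-only (26.8%). The CTRL-only count rested on C26 replicate 1: without that library it was 34 (64.15% of the 53, against 58.31% of all genes), and without C26 replicate 2 it stayed at 9. Without C26 replicate 2, 44 of the 73 genes had a peak in every library left, against 24.08% of all genes.

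**Figure D2:**
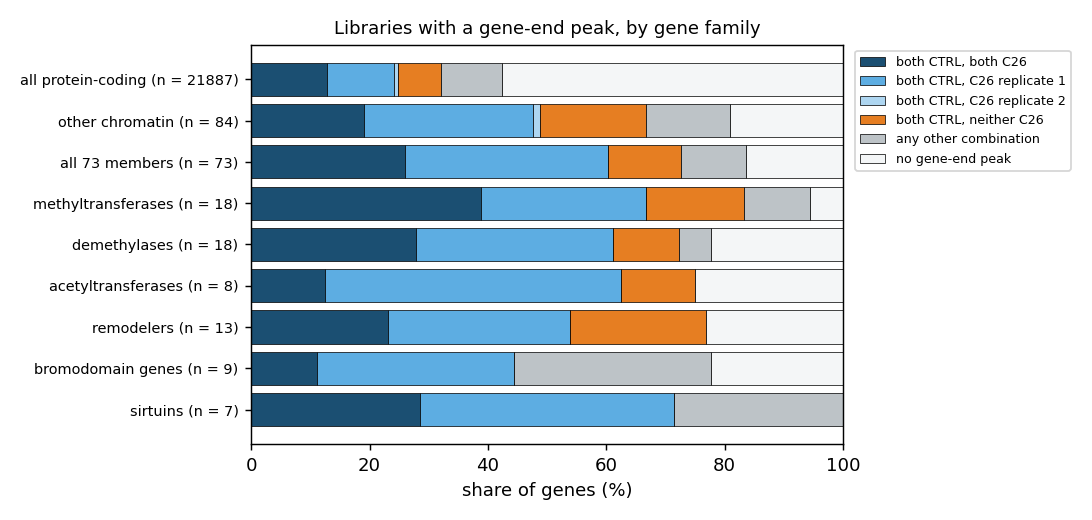
Horizontal bars give, in percent of the genes of each set, which libraries had a gene-end peak, for all protein-coding genes, 84 other chromatin genes, all 73 genes and their 6 families. Methyltransferase genes have the widest share with a peak in all 4 libraries (7 of 18, against 12.73% of all genes). The CTRL-only share is 3 of 13 for the remodelers, 0 of 7 for the sirtuins and 0 of 9 for the bromodomain genes, against 7.397% of all genes.

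The strongest peaks lay at genes that kept a peak in every library. Strength is given as the fold enrichment at the summit relative to input, the peak's own value from the authors' caller, and as a percentile by −log10 q within the list, with 100 for the strongest peak. Enrichments from different lists were scaled separately and are not compared with each other. Values of each gene follow 1 order, CTRL replicates 1 and 2 and then C26 replicates 1 and 2.

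Setd3, which encodes the histidine methyltransferase of actin, had 55.0-, 55.8-, 28.0- and 20.0-fold enrichment and percentiles of 98.0, 98.1, 96.7 and 93.0. Its peak on chromosome 12 (108179185 to 108180244 in CTRL replicate 2) also lies within 1000 bp of an end of Ccnk, so it may belong to either gene. Smarcad1, a remodeler of the SNF2 family with roles in heterochromatin and DNA repair, had 68.1-, 54.6-, 16.5- and 16.3-fold (chromosome 6, 65042277 to 65043199) and percentiles of 90.6 or more in each list. These were the members with the highest lower CTRL percentile, and their place near the top held in all 4 lists.

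Histone H3 lysine 4 methyltransferases, which mark active promoters and enhancers, were occupied throughout in CTRL muscle: 7 of 7 had a peak in both CTRL libraries, 3 of them in all 4, with Kmt2d counted through a peak at its downstream end. Kmt2b had 34.1-, 58.3-, 17.4- and 14.3-fold enrichment (chromosome 7, 30588414 to 30589626), in a peak shared with the end of Zbtb32. Kmt2c, an enhancer methyltransferase, had 26.7-, 31.3-, 17.2- and 9.27-fold at 811 to 862 bp from the gene end (chromosome 5, 25498431 to 25500088). Setd1a, a catalytic subunit of the SET1 complex, had 12.8-, 23.5-, 12.5- and 5.67-fold, and its C26 replicate 2 peak was among the weaker of that list (percentile 30.8). Kmt2a, a regulator of developmental genes, had 20.6-, 31.1- and 11.5-fold in 3 libraries (chromosome 9, 44881063 to 44882307) and no peak in C26 replicate 2, although its percentile was 91.7 or more in both CTRL lists. The 2 CTRL-only members of this group were Setd1b and Setd7.

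Among other methyltransferases, the H4 lysine 20 enzymes Kmt5a, Kmt5b and Kmt5c all had a peak in both CTRL libraries and in C26 replicate 1, and Kmt5c also in C26 replicate 2 (12.4-, 21.2-, 7.84- and 10.6-fold). Setd2, the enzyme that trimethylates H3 lysine 36, had 6.72-, 9.77- and 3.81-fold in 3 libraries, the last at percentile 16. Setdb1, which trimethylates H3 lysine 9 at silenced elements, missed a peak only in CTRL replicate 1 and had 9.79-, 9.54- and 7.18-fold in the other libraries. It was the only member with this combination. Setd6 was the single methyltransferase gene without a peak in any library.

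Of the demethylase genes, 13 of 18 were occupied in both CTRL libraries. Of the H3 lysine 9 demethylases, 5 of 6 were occupied in both CTRL libraries and 4 of 6 in all 4. Kdm4b had the highest lower CTRL percentile of the family, 85.6, with 13.3-, 17.9-, 5.67- and 7.78-fold enrichment (chromosome 17, 56325330 to 56326701). Kdm4a had 9.24-, 15.2-, 9.16- and 10.1-fold and Kdm3a, a hypoxia-induced demethylase, 7.89-, 13.7-, 9.87- and 11-fold. Kdm4d shares its peak with the end of Cwc15, a splicing factor gene.

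Of the H3 lysine 4 demethylases, 5 of 6 had a peak in both CTRL libraries. Kdm5a had one in all 4 (10.3-, 16.8-, 10.6- and 9.54-fold), Kdm5b, Kdm5c and Kdm1b in 3, and Kdm1a in the CTRL libraries alone. The Y-linked Kdm5d had none in any library. Neither H3 lysine 27 demethylase was occupied at a gene end in both CTRL libraries. Kdm6b, a signal-induced enzyme, had a weak one in CTRL replicate 1 (5.75-fold), but also a peak farther inside the span, 1329 to 1383 bp from the end, in all 4 libraries with 17.3-, 20.8-, 5.21- and 6.09-fold enrichment.

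Acetyltransferase genes were led by Kat8, the H4 lysine 16 acetyltransferase, with 21.6-, 21.0-, 7.97- and 7.68-fold (chromosome 7, 127912088 to 127912859). It was the only Kat gene of 8 with a gene-end peak in all 4 libraries, while Kat14, Kat2a, Kat6a and Kat7 had one in 3. Kat2a and Kat2b encode related acetyltransferases (GCN5 and PCAF). Kat2a had 7.99-, 15.3- and 4.10-fold with a peak in C26 replicate 1, and Kat2b 5.43- and 7.21-fold in the CTRL libraries with no C26 gene-end peak. Whether these 2 genes differ was not tested.

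The SWI/SNF complexes use ATP to open chromatin, and 9 of their 11 subunit genes were occupied at a gene end in both CTRL libraries. Of these 9, only Smarcd2 was also occupied in both C26 libraries, and 3 were CTRL-only. The Smarcd2 peak is shared with an end of Tcam1, so it may belong to either gene. Its summits lay 5130 to 5560 bp upstream of the RefSeq start of Smarcd2, and no library had a start-site peak there. The catalytic subunits Smarca2 and Smarca4 each had a peak in both CTRL libraries and C26 replicate 1. Smarca4 had 4.27-, 15.6- and 4.63-fold, at percentiles of 16.4, 83.4 and 40.9, so its CTRL libraries placed it far apart in strength. Smarcc2 and Smarcd1 followed the same pattern as Smarca4, and Brd7 did too. Brd9, the subunit of the noncanonical complex, had a peak in CTRL replicate 2 alone (6.52-fold). The ISWI ATPase Smarca5, which spaces nucleosomes, had 13.4-, 23.4-, 10.6- and 14.9-fold in the 4 libraries, with percentiles from 88.3 to 92.7. The other ISWI gene, Smarca1, had no peak.

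All 7 sirtuin genes had a gene-end peak in CTRL replicate 2, and 5 in both CTRL libraries. Sirt2 and Sirt4 had one in all 4 libraries, Sirt1, Sirt6 and Sirt7 in 3, and Sirt3 and Sirt5 in CTRL replicate 2 alone. The Sirt2 peak is shared with an end of Nfkbib and was weak in C26 replicate 2 (4.76-fold, percentile 9.65). The Sirt7 peak lies at the downstream end of the gene and is shared with an end of Pcyt2. Sirt1, a nuclear deacetylase that acts on the coactivator PGC-1α, had 4.60-, 9.81- and 4.96-fold (chromosome 10, 63338302 to 63339562) and was at percentile 29.4 in CTRL replicate 1. Of the 3 mitochondrial sirtuins only Sirt4 was occupied in both CTRL libraries, with 7.02-, 13.4-, 8.62- and 6.81-fold. Its gene-end peak lay 5663 to 5882 bp upstream of the start in the RefSeq table, where weaker peaks of 6.54-, 5.99- and 5.02-fold were called in the CTRL libraries and C26 replicate 1. Sirt3, the main mitochondrial deacetylase, had 10.2-fold in CTRL replicate 2, in a peak shared with the proteasome gene Psmd13.

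The genes named Brd had the lowest occupancy of the 6 families, 4 of 9 in both CTRL libraries (44.4%, against 32.2% of all genes). The family goes by symbol, and Brd3os, 1 of the 4, need not encode a bromodomain. Brd2 and Brd3 are not among the 4 but had a peak at an inner start in both CTRL libraries. Brd8, a subunit of the TIP60 acetyltransferase complex, had a peak in all 4 libraries (5.81-, 10.6-, 4.24- and 6.98-fold), in a peak shared with Kif20a. Brd3os and Brd7 had both CTRL libraries and C26 replicate 1, Brd1 and Brd9 had CTRL replicate 2 alone, and Brd3 and Brd8dc had none. Brd2 was the 1 member occupied at a gene end in C26 replicates 1 and 2 alone (1.37%, against 0.0274% of all genes, 6 in number), and its peaks are described below with the inner starts.

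The CTRL-only genes were Kdm1a, Smarcb1, Setd1b, Kdm3b, Kat2b, Smarce1, Setd7, Smarcc1 and Setdb2, in falling order of the lower CTRL percentile. Kdm1a, the H3 lysine 4 demethylase LSD1, came first by this measure, with 8.74-fold in CTRL replicate 1 and 11-fold in CTRL replicate 2 (chromosome 4, 136602640 to 136603035; percentiles 58.8 and 70.3). Smarcb1, a core SWI/SNF subunit, had 5.81- and 15.3-fold (chromosome 10, 75921009 to 75922027; percentiles 50.3 and 82.4). The scaffold subunit Smarcc1 had 4.01- and 5.62-fold and the subunit Smarce1 4.89- and 5.24-fold, so 3 SWI/SNF subunits were in this group. They were 33.3% of the 9 SWI/SNF genes occupied in both CTRL libraries (Wilson interval 12.1 to 64.6). The share was 23% over all genes so occupied, which lies inside that interval.

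The other 5 had a lower CTRL percentile of 41.0 or less. Setd1b, the second SET1 subunit, had 5.68- and 6.50-fold in a peak shared with an end of Rhof, and Kdm3b, an H3 lysine 9 demethylase, had 5.85- and 5.68-fold. Setd7 had 4.48- and 7.83-fold, and Setdb2, an H3 lysine 9 methyltransferase, had 3.54- and 5.56-fold at percentiles of 9.06 and 40.4. For 2 of the 9 a C26 peak was called elsewhere in the span. In Setd7 the stronger of these lay 1081 bp from the gene end (8.04-fold in C26 replicate 1), just outside the window, next to CTRL peaks at 1106 and 973 bp. In Kat2b it lay 29765 bp inside the gene (6.74-fold in C26 replicate 2).

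Whether a gene had a C26 peak went with the strength of its CTRL peaks, among the chromatin genes as among all genes. The 7037 genes occupied at a gene end in both CTRL libraries were divided into 3 equal groups by the lower of their CTRL percentiles. In the weakest group 7 of 13 chromatin genes were CTRL-only (53.8%, against 51.3% of all genes), in the middle group 2 of 20 (10%, against 17.2%) and in the strongest 0 of 20 (0%, which allows a share of up to 15%, against 0.512%). C26 replicate 2 had a peak at 0 of 13, 5 of 20 and 14 of 20. These were 0%, 25% and 70%, against 11.6%, 33.3% and 80.2% of all genes, and 0 of 13 allows up to 23.1%. C26 replicate 1 had one at 6 of 13, 18 of 20 and 20 of 20. These were 46.2%, 90% and 100%, against 45.1%, 80.3% and 99.2% of all genes. The median lower CTRL percentile was 69.8 for the 53 chromatin genes and 62.7 for all 7037, and 23.9 for the 9 CTRL-only genes.

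**Figure D3:**
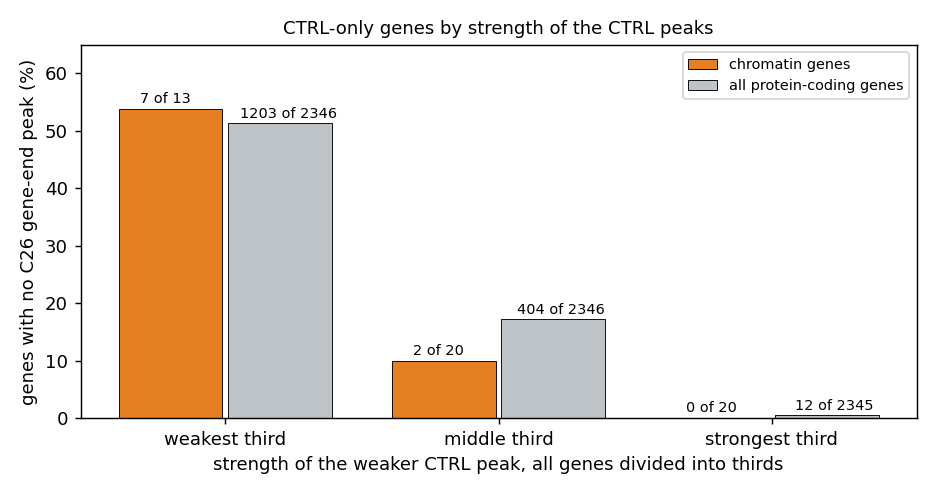
Bars give the percent of genes occupied in both CTRL libraries that had no gene-end peak in either C26 library, for chromatin genes and for all protein-coding genes, in 3 equal groups by the strength of the weaker CTRL peak. Both kinds of bar fall from over 51% in the weakest group to under 1% in the strongest, 0 of 20 chromatin genes there.

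Lists of equal length could not show any of the 9 as CTRL-only. Their peaks in CTRL replicate 1 ranked from 4464 (Kdm1a) to 9839 (Setdb2), outside the 4051 strongest. The trimmed lists therefore say nothing about C26 peaks at these genes. With each list trimmed to its 4051 strongest peaks, 28 chromatin genes kept a peak in both CTRL lists, and Kat2a was the 1 CTRL-only gene (3.571%, against 7.311% of all genes). With only peaks at −log10 q of 5 or more, 8 genes were CTRL-only, 5 of them among the 9. They were 16.67% of the chromatin genes bound in both CTRL lists, against 26.24% of all genes so bound.

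Peaks at chromatin genes were compared in strength with the gene-end peaks of all genes in the same list, as a description. Their median percentile was 66.5 against 63.6 for all genes with a gene-end peak in CTRL replicate 1, and 78.2 against 69.2 in CTRL replicate 2, the widest gap of the 4. In that list 58.6% of the chromatin genes with a peak were at or above percentile 75, against 41.9% of all genes with one. In C26 replicate 1 it was 63.7 against 60.5 and in C26 replicate 2 60.0 against 60.9. The median fold enrichment was 8.34, 12.6, 6.30 and 7.78 in the 4 lists, against 7.78, 10.0, 6.09 and 7.88 for all genes. Peaks at chromatin genes had median widths of 612, 897, 545 and 504 bp, against 571, 664, 484 and 456 bp. From 27.6% to 33.3% of their peaks also lay near an end of another protein-coding gene, against 29.1% to 36.4% for all genes, and such a peak may belong to either neighbor.

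**Figure D4:**
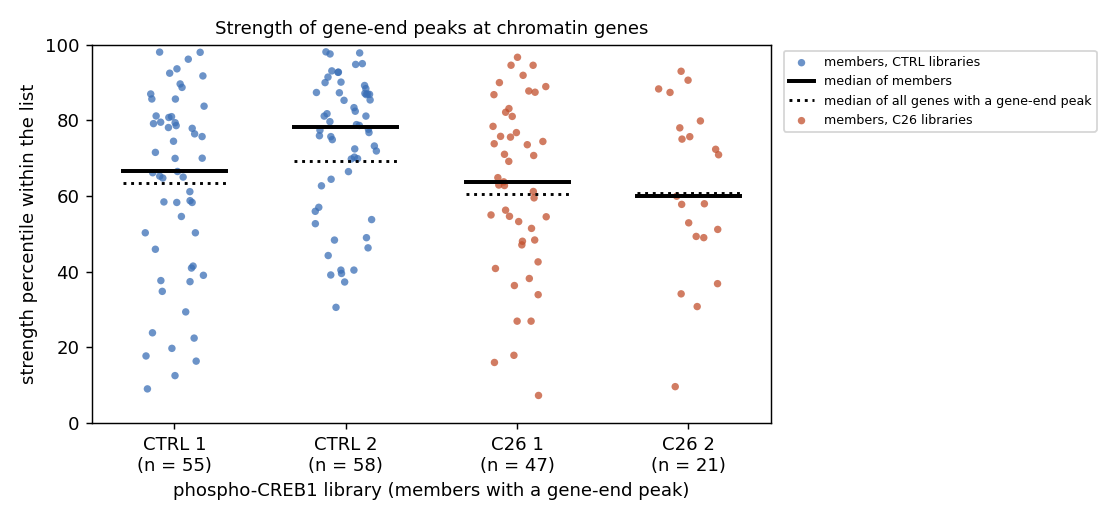
Points are chromatin genes with a gene-end peak, plotted by strength percentile (0 to 100) within each library's own list, with a solid line at their median and a dotted line at the median of all genes with a gene-end peak. The medians lie close in CTRL replicate 1 (66.5 and 63.6) and C26 replicate 2 (60.0 and 60.9) and are farthest apart in CTRL replicate 2 (78.2 and 69.2).

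Several genes without a gene-end peak were bound at a transcription start inside their span. Of the 12 genes without one, 8 had a peak inside the span in both CTRL libraries (Brd3, Kat5, Kat6b, Kdm2a, Kdm4c, Kdm6a, Smarcal1 and Smarcd3). The other 4, Brd8dc, Kdm5d, Setd6 and Smarca1, had no peak in the span or within 1000 bp of it in any library (5.48%, against 50.3% of all genes). Transcription starts came from the RefSeq promoter table, which holds 60 of the 73 genes and 17492 protein-coding genes in all.

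Kat5, the acetyltransferase TIP60, was among the most strongly bound of all the chromatin genes, which the gene-end rule missed. Its peak had 43.3-, 66.3-, 21.4- and 13.3-fold enrichment at percentiles of 97.2, 97.8, 96.1 and 87.7 (chromosome 19, 5609512 to 5610578 in CTRL replicate 2). Its summits lay 2 to 29 bp from a RefSeq start and 1449 to 1491 bp from the gene end. Kat6b, a MYST acetyltransferase gene, had 15.3-, 21.5-, 6.02- and 11.6-fold at 839 to 903 bp past a start. With these starts counted, 5 of 5 MYST genes were bound in both CTRL libraries, in place of 3 of 5.

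Brd3, a BET gene, had 9.36-, 22.2- and 7.28-fold and no peak in C26 replicate 2. Kdm4c had 9.55-, 10.7- and 4.25-fold, and Smarcal1, an annealing helicase of replication forks, 7.99-, 12.6- and 6.62-fold, both in the same 3 libraries. The X-linked Kdm6a had 6.43-, 9.44- and 5.95-fold in those libraries. Smarcd3, the SWI/SNF subunit BAF60c known from heart and skeletal muscle development, had 5.68- and 8.72-fold in CTRL muscle. In C26 replicate 2 it had 3.74-fold, among the weakest peaks of the list (percentile 0.0987). That summit lay 754 bp before the start, against 218 and 97 bp in CTRL replicates 1 and 2. The C26 replicate 2 peak fell inside the CTRL replicate 2 peak and did not overlap that of CTRL replicate 1. Kdm2a is not in the promoter table, and its peak 1421 to 1530 bp from the gene end had 18.6-, 29.1-, 20.1- and 11.6-fold.

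**Figure D5:**
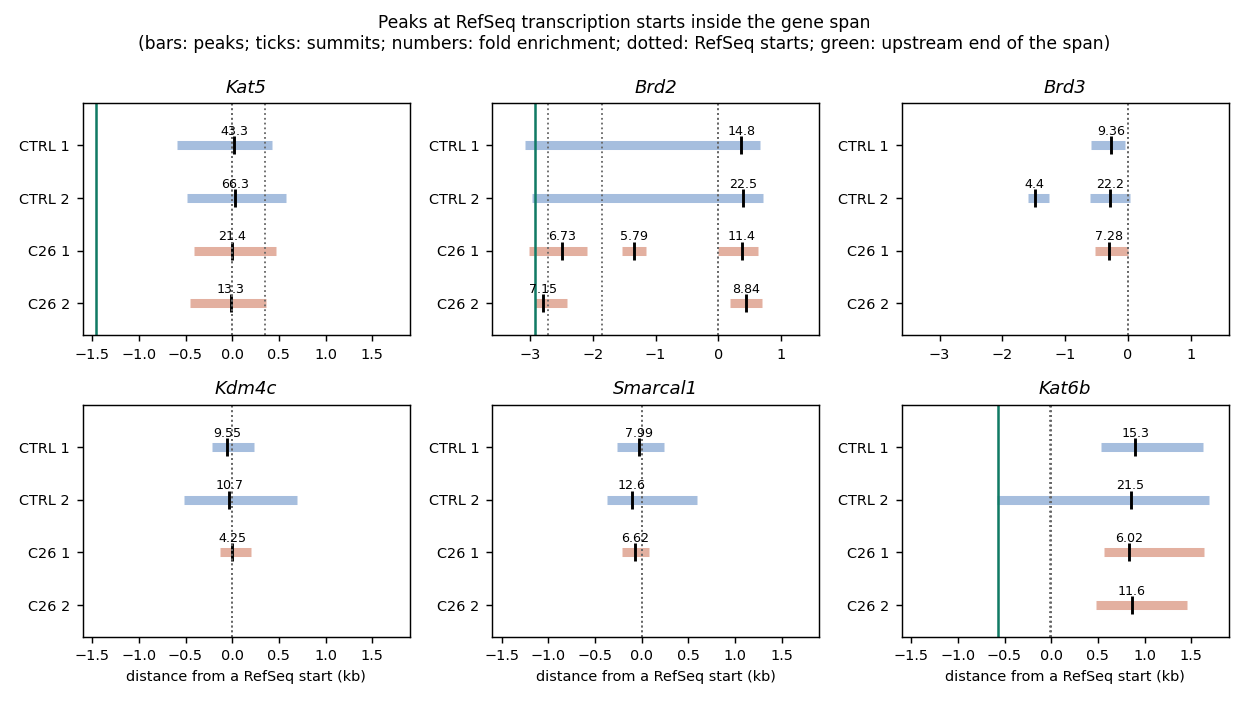
Each panel shows the peaks of the 4 libraries (bars, with ticks at summits and fold enrichment above) against the distance in kb from a RefSeq start of the gene, with further starts dotted and the upstream end of the span in green where it falls in the panel. The Kat5 summits sit at the start in all 4 libraries, and the Brd2 peaks of both CTRL libraries are wide calls that span the gene end and the inner start, which the C26 libraries show as separate peaks.

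The C26-only call of Brd2, a BET gene, depended on how a wide peak was counted. In CTRL replicates 1 and 2 the peaks ran from 34119239 to 34122987 and from 34119189 to 34122871 on chromosome 17, across the gene end, with summits 362 and 388 bp past an inner start (14.8- and 22.5-fold). In C26 muscle the inner start (11.4- and 8.84-fold) and the gene end (6.73- and 7.15-fold) had separate peaks. When any overlap of a peak with the window was counted, or starts were used, 0 members were C26-only. Without CTRL replicate 2 there were 2, Brd2 and Setdb1.

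At transcription starts, 48 of the 60 genes were occupied in both CTRL libraries (80%, against 34.8% of the table's genes). Of the 48, 14 had one in all 4 libraries (29.2%, against 39.5%) and 6 were CTRL-only (12.5%, against 22.9%), all 6 among the 9 named above. Gene ends and starts were also counted together, an alternative added after the data were seen. Then 62 genes were bound in both CTRL libraries (against 34.98% of all genes) and 22 in all 4 (against 13.8%). The same 9 were CTRL-only, 14.52% of the 62, against 22.98% of all genes so bound.

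Of 50 genes with a gene-end peak and a known strand, the peak lay at the upstream end in 48. There is no such count over all genes to set beside it, so it is not read as a trait of the chromatin genes. The exceptions were Kmt2d and Sirt7. The Kmt2d gene-end peak lies at its downstream end, next to the start of Prkag1, a regulatory subunit gene of AMP-activated kinase. A stronger peak of 21.7-, 21.5- and 14.0-fold in both CTRL libraries and C26 replicate 1 lay 1002 to 1014 bp from the Kmt2d start, just outside the window. Close to the limit of 1000 bp, Setd1b lay inside it at 963 bp in CTRL replicate 1, and peaks of Setd5 and Setd1a at 1029 bp, Sirt4 at 1039 bp and Setd4 at 1050 bp lay outside it. Setd4 therefore lacks a gene-end peak in CTRL replicate 2 and had a start-site peak of 9.26-fold there.

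The sequence of the promoters was searched in the window shown above, on both strands. The full element TGACGTCA was found at 0 of the 60 genes (a count of 0 allows a share of up to 5%), against 445 of 17492 genes (2.54%). Over all genes those with it had a start-site peak in both CTRL libraries in 78.4% of cases, against 33.6% of those without, and their summits lay a median of 14.5 to 21.5 bp from it in the 4 lists. TGACG, which the full element also contains, was found in 20 of the 60 genes (33.3%, against 26.2%), and 18 of these 20 had a start-site peak in both CTRL libraries (90%, against 61.7% of all genes with TGACG). Of the 40 chromatin genes without it 30 had one too (75%, against 25.2%). Among genes with such a peak, 37.5% of the chromatin genes and 46.6% of all genes held TGACG.

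Other promoter motifs were searched in the same way. The GC box GGGCGG was in 75% of the chromatin genes (49.2% of all genes), the ETS motif CCGGAAG in 26.7% (12.9%), the NRF1 core GCGCATGC in 11.7% (3.94%), CCAAT in 38.3% (42.3%) and the YY1 motif AGATGGCG in 5% (2.8%). Among genes with a start-site peak in both CTRL libraries the shares were closer for the GC box, 72.9% of chromatin genes and 75.3% of all, and for ETS, 22.9% and 24.3%. They were 12.5% and 7.15% for NRF1, 39.6% and 45.7% for CCAAT, and 6.25% and 5.46% for YY1. Where a summit fell inside the window, TGACG lay within 50 bp of it in 9 of 39, 10 of 46, 9 of 34 and 5 of 11 chromatin promoters. These were 23.1%, 21.7%, 26.5% and 45.5%, against 35.8%, 32.5%, 41.4% and 51.6% of all promoters in the 4 lists. A gene with several windows, such as Kdm2b, counts more than once. A match is a description of the letters and not a test of binding.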

How the data were processed

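Each of the 4 phospho-CREB1 libraries has a deposited peak list, called by the authors against an input of its own group at a q threshold of 0.05, per the labels. The submitters' processing notes list MACS2 2.1.4, SAMtools 1.6, Bowtie2 2.3.5.1, FastQC 0.11.2 and Picard, and the build mm10 (GRCm38). The deposited columns used are the fold enrichment ratio at the summit, the −log10 q-value and the peak positions, all as the authors' caller wrote them. The labels also name a filter by an abbreviation whose meaning they do not give. Each list was used as deposited, with 0 columns of other samples. Signal tracks and reads were not used here.

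Gene spans and promoters came from RefSeq tables on GRCm38.p6 and were joined to summits in Python 3.11.15 (numpy 2.4.6, pandas 2.3.3, SciPy 1.17.1, matplotlib 3.10.9). The strongest gene-end peak by −log10 q stands for a gene. The assignment was tested on simulated peaks with known positions. Strand was known for genes in the promoter table alone, which leaves out 13 of the 73. Groups came from the labels, and the number of genes per library was compared by an exact permutation test over 4 libraries, which has 6 assignments. Shares have 95% Wilson intervals. The 73 genes and the comparison lists were chosen with earlier results of these data known. Genes named in full were the 8 strongest present in all 4 libraries, all CTRL-only and C26-only genes, the strongest of each family, and the genes without a peak. Others were named by family, and Kmt2a, the H3 lysine 4 and lysine 9 enzymes, genes with peaks at inner starts and genes near the window's limit were chosen after their values were seen. Values of 1 of the 73 genes are not reported here, though counts include it. Alternatives were windows of 500 and 2000 bp, any overlap of at least 1 bp, −log10 q of at least 5, trimmed lists, starts only, starts added to ends, a replicate block, and leaving out each library.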

Additional observations from a re-analysis of the deposited data

How the results depend on the processing

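Windows of 500 bp or 2000 bp, −log10 q of at least 5, any overlap and starts alone were tried. The count bound in both CTRL libraries ran from 45 to 59, against 27.79% to 34.81% of all genes. That of CTRL-only genes ran from 6 to 10. These were 12.5% to 17.54% of the chromatin genes bound in both, against 22.67% to 26.24% over all genes. Trimmed lists gave 28 bound in both CTRL libraries (against 14.56% of all genes) and 1 CTRL-only gene (3.571%, against 7.311%). They also gave 2 C26-only genes, Brd2 and Setdb1 (against 0.3838% of all genes). The C26-only count was 0 with any overlap, with starts alone and with starts added to ends. In each case the cause was not tested. Leaving out each library in turn gave differences from −35.5 to −9.5 genes. Every CTRL library kept had a peak at 53 to 58 genes, against 32.15% to 40.09% of all genes. Of these counts, 55 and 58 are those of CTRL replicate 1 or 2 alone. All libraries kept had one at 19 to 44, against 12.76% to 24.08% of all genes. From 9 to 34 were CTRL-only (16.98% to 64.15% of those bound, against 25.11% to 58.31% over all genes). From 1 to 2 were C26-only, against 0.0594% to 0.3427% of all genes. With the replicate number as a block the difference was −22.5 and p = 0.5 (exact sign flips, the smallest p possible). Whether the replicate numbers pair the libraries is unknown. Over 2786 genes with a peak in all 4, the percentile differences between replicates 1 and 2 had a correlation of −0.034 between CTRL and C26 muscle. Percentiles within lists, from 2 pairs, cannot settle the pairing. With 2 libraries per group neither exact test can pass 0.05, and depth is unknown.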

Other observations

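Chromatin genes outside the symbol rule include the partners of phospho-CREB1 itself. Crebbp, the gene of CBP, was bound at a gene end in every library, at 29.1- and 43.1-fold in CTRL and 10.3- and 9.43-fold in C26 muscle, replicate 1 before replicate 2. Ep300, the gene of p300, had 9.14- and 15.9-fold in the CTRL libraries and no gene-end peak in C26 muscle. The difference between these genes was not tested. Among histone deacetylase genes Hdac10 had the strongest peak, 105-, 225-, 56.4- and 39.4-fold in the same order, while Hdac1, Hdac2 and Hdac5 were CTRL-only, with 6.37- and 11.3-fold, 3.69- and 9.12-fold, and 7.78- and 12.7-fold. The arginine methyltransferase gene Prmt5 had 23.9-, 30.4-, 11.3- and 8.55-fold in the 4 libraries, and Carm1 had 20.5-, 32.1- and 12.7-fold with no peak in C26 replicate 2. These genes were picked from the list of 84 after their values were seen.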
